A study of Mus musculus with 8 samples.

Results

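The genes described here are the 4 IRAK kinases, Irak1, Irak2, Irak3 and Irak4, and 6 TRAF adaptors, Traf1 to Traf6. They were taken by symbol from the 55414 gene rows of the deposited count table, each matched a single Ensembl ID, and all 10 passed the filter on low counts. The cells were red pulp macrophages isolated from spleens of WT C57BL/6J mice by flow cytometry. These had undergone cecal ligation and puncture (CLP, in which the punctured bowel leaks bacteria into the abdomen) or sham surgery 2 h earlier. Each group held 4 libraries. The mice carried no transgene in the labels, and no age, sex, sort gate or mouse of origin is stated for a library. The p-values below therefore measure the spread between these libraries, which may be technical in part.

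IRAK and TRAF proteins carry the signal from Toll-like receptors, interleukin-1 family receptors and receptors of the TNF family to NF-kB and the MAP kinases. When a Toll-like receptor is engaged, the adaptor MyD88 assembles with Irak4, which activates Irak1 and Irak2, and these hand the signal to Traf6, a ubiquitin ligase whose chains recruit the kinase TAK1. Irak3, also called IRAK-M, lacks kinase activity and is best known in macrophages as a brake on this route. The other TRAF proteins mainly serve TNF family receptors and antiviral signalling.

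Total counts lay between 15392992 and 25665633 per library, so that 1 CPM (counts per 1000000 reads, after TMM scaling between libraries) stood for 15.1 to 27.6 reads. Of 8 red pulp macrophage markers, all tested, 4 were higher and 1 lower after CLP, and their summed level was 31110 to 38507 CPM in sham and 36929 to 41595 CPM in CLP libraries. Summed neutrophil markers reached 27.3 CPM, B cell markers 52.9 CPM and T and NK cell markers 56.7 CPM at most. Dendritic cell markers summed to 55.5 to 68.2 CPM in sham and 59.7 to 70.3 CPM in CLP, with 1 of 6 higher and 1 lower. Markers of endothelium and stroma summed to 790 to 880 CPM over all libraries, with 2 of 6 higher. Most of that sum was Pecam1 and Stab2 (435 and 382 CPM on average in sham), and neither was called. Cdh5 averaged 2.27 CPM in sham and 3.68 CPM in CLP. The erythroid sum ranged from 259 to 1277 CPM in sham, with Sham replicate 4 highest, and from 678 to 1181 CPM in CLP, with 2 of the 5 tested markers higher. Marginal zone macrophage markers summed to 305 to 375 CPM in sham and 368 to 677 CPM in CLP, with 1 of 3 tested higher. Platelet markers, at 17.5 to 22.3 CPM in CLP against 6.62 to 7.78 CPM in sham, were higher for 3 of the 4 tested. Sham replicate 4 also had the lowest red pulp macrophage sum, and it held the lowest sham value of 5 of the 10 genes described here. Sham replicate 3 held the highest sham value of Irak1, Irak2, Irak3, Irak4, Traf1, Traf2, Traf3 and Traf6. Its sums of neutrophil (8.91 CPM), monocyte (18.2 CPM) and T and NK cell markers (37.9 CPM) were the highest in sham. How often these libraries were lowest or highest over all genes was not counted. In sorted bulk samples a smaller number of cells of a type and less RNA per cell cannot be told apart.

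After CLP the RNA of the family moved unevenly along the route. Irak2 and Traf6 rose 2.98-fold and 2.10-fold, the brake Irak3 rose 2.05-fold and Traf1, a feedback adaptor, rose 3.72-fold. Irak4, the kinase at the receptor, fell 1.19-fold, and Irak1 did not pass the test. In edgeR's quasi-likelihood test with Benjamini-Hochberg adjustment over all 14004 genes tested, 6 of the 10 genes were higher (Irak2, Irak3, Traf1, Traf2, Traf3 and Traf6) and 2 were lower (Irak4 and Traf5) at an adjusted p below 0.05. Among all genes tested 43.3% were called, 19.8% higher and 23.5% lower. The median log2 fold change (CLP minus sham) was 0.64 over the 10 genes and -0.05 over all genes tested. The CPM of the groups did not overlap for 6 of the 10, 5 higher and 1 lower, where this held for 41.5% of all genes, 18.7% higher and 22.8% lower. With 1 library left out 5 to 7 of the 10 were called. Without Sham replicate 2 these were 5 higher and 0 lower, without Sham replicate 3 there were 6 higher and 0 lower, and without Sham replicate 4 there were 6 higher and 1 lower. Only without CLP replicate 4 were 2 lower, beside 5 higher. Scaling mattered for the smaller changes. Scaled to library totals instead, the median shift of all genes was -0.32 on the log2 scale, and 4 of the 10 genes were called higher (Irak2, Irak3, Traf1 and Traf6) and 3 lower (Irak1, Irak4 and Traf5), where 55.1% of all genes were called, 9.18% higher and 46% lower.

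**Figure D1:**
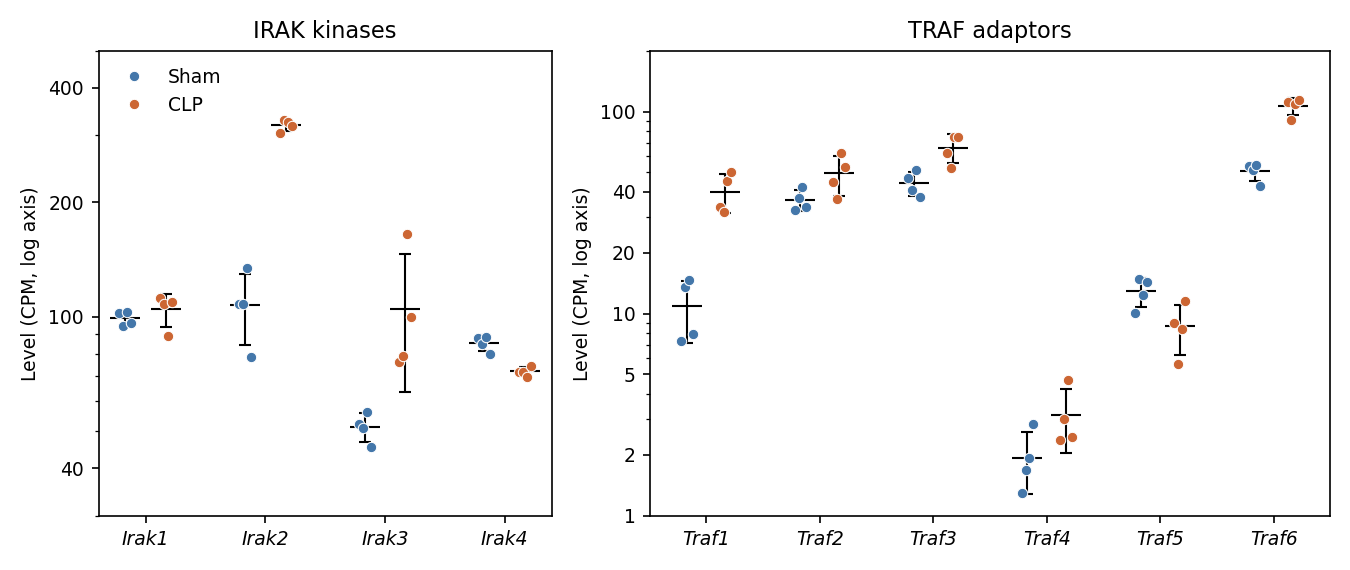
Level of each IRAK and TRAF gene in every library, in CPM on log axes; points are libraries, horizontal bars the group means and whiskers the SD of 4 libraries. All 4 CLP libraries lie above all sham libraries for Irak2, Irak3, Traf1, Traf3 and Traf6 and below them for Irak4, while Irak1, Traf2, Traf4 and Traf5 overlap.

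The 250 bases before the transcription start are shown for 4 of the genes, with the sequences of RefSeq (GRCm38.p6, gene strand, 5′ to 3′). Irak2 and Traf1 are shown because they had the largest rises, and Irak1 and Traf3 because their windows were the only ones among the 10 genes to hold the NF-kB consensus, printed in capitals. Irak2 is from chr6:113638217-113638466 (plus strand), Traf1 from chr2:34961773-34962022 (minus strand), Irak1 from chrX:74023919-74024168 (minus strand) and Traf3 from chr12:111166120-111166369 (plus strand).
Irak2: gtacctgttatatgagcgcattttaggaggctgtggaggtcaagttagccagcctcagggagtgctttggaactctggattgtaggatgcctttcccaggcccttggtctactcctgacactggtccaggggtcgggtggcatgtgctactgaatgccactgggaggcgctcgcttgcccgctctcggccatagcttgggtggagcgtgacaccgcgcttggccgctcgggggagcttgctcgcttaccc
Traf1: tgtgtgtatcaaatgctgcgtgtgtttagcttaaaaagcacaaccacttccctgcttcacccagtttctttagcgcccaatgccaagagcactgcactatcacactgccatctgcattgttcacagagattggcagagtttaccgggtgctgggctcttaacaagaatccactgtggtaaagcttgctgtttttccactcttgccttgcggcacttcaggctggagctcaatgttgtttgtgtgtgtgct
Irak1: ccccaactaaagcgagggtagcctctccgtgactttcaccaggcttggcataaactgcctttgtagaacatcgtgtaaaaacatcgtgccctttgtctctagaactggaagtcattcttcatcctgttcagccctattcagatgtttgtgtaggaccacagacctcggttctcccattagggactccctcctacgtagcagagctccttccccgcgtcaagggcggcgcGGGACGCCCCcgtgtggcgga
Traf3: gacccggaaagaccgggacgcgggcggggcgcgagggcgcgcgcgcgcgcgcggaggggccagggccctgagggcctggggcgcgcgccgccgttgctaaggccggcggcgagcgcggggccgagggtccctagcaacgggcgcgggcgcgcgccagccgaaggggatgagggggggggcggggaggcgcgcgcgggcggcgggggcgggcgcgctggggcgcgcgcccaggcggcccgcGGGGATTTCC

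The NF-kB match of Irak1 lay 21 to 12 bases before the start of the window shown, and 18 to 9 bases before another RefSeq start of Irak1. It fits the consensus read on either strand. The match of Traf3 lay 10 to 1 bases before its start, on the gene strand. Both strands were searched, and of 27025 genes with a window of this length 8.23% held the NF-kB consensus. The AP-1 motif TGANTCA was found in no window of the 10 genes (7.82% of all genes) and the PU.1 core GAGGAA in those of Traf2 and Traf6 (25.9% of all genes). A match is a description of the letters in this window, and no match says nothing of sites elsewhere. The Traf3 window was the richest in G and C of the 12 windows of these genes, at 85.2%.

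Irak4, the kinase that binds MyD88, was at 87.9, 85.0, 88.7 and 79.9 CPM in the 4 sham libraries and at 71.6, 71.6, 69.6 and 74.4 CPM in the CLP libraries. Every CLP library lay below every sham library, by a small margin. Mean Irak4 fell by 0.25 on the log2 scale (SE 0.07), from 85.4 ± 4.0 CPM to 71.8 ± 2.0 CPM (SD, n = 4 in this and all later values with ±), and edgeR gave an adjusted p of 0.00945. It was lower by 0.57 with library totals, and its call was lost without Sham replicate 1, 2 or 3 (adjusted p up to 0.0691 in edgeR). Twf1, which overlaps Irak4 on the opposite strand, was called higher (log2 fold change 0.23). That call was lost with library totals (-0.09), with no filter on low counts (0.21, edgeR adjusted p = 0.0773) and without CLP replicate 4 (0.20, edgeR adjusted p = 0.0632). The libraries were stranded, per the labels' protocols, but no strand setting of the counting is stated. Whether the counts keep apart reads of the exons this pair shares is not known.

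Irak1, the kinase that Irak4 activates and that binds Traf6, stood at 102, 94.3, 103 and 96.4 CPM in sham libraries. The CLP libraries were at 112, 108, 89.1 and 109 CPM, with 3 of them above all sham libraries and CLP replicate 3 below all of them. Irak1 differed by 0.08 on the log2 scale (SE 0.08, edgeR adjusted p = 0.477), within the spread of the libraries. With library totals the sign turned and Irak1 was called lower (-0.24, adjusted p = 0.0236 in edgeR). It was not called with any single library left out.

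Irak2, a kinase-like relative of Irak1 that takes part in prolonged Toll-like receptor signalling, had the largest change of the 4 kinases. Its levels were 108, 108, 134 and 78.4 CPM in sham, with Sham replicate 4 lowest, and 304, 329, 324 and 318 CPM in CLP. The CLP libraries were all far above sham and close to each other, with a coefficient of variation of 3.39% against 21.2% in sham. Irak2 rose by 1.58 on the log2 scale (SE 0.13, edgeR adjusted p = 1e-05), 1.26 with library totals and 1.47 without Sham replicate 4. It was called with each library left out in turn.

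Irak3 rose as well, and it varied most among CLP libraries. Sham libraries lay at 52.3, 51.1, 56.3 and 45.4 CPM. CLP libraries lay at 75.8, 78.8, 165 and 99.7 CPM, all above sham, with CLP replicate 3 well above the rest and a coefficient of variation of 39.6% against 8.78% in sham. Its rise was 1.03 on the log2 scale (SE 0.24, edgeR adjusted p = 0.00836), 0.73 without CLP replicate 3 (edgeR adjusted p = 0.000271) and 0.72 with library totals. CLP replicate 3 also had the highest summed markers of neutrophils (27.3 CPM, against 10.4 to 25.5 in the other CLP libraries and 3.33 to 8.91 in sham), of monocytes (22.6 CPM, against 13.1 to 17.1 and 14.5 to 18.2) and of T and NK cells. Marginal zone macrophage markers were highest there too, at 677 CPM, against 368 to 491 CPM in the other CLP libraries. Marco of that list was called higher (1.32 on the log2 scale, edgeR adjusted p = 0.0219, and 0.97 without CLP replicate 3). With no filter on low counts Marco was not called (1.29, edgeR adjusted p = 0.0693). Siglec1, the most abundant of that list, was not called, with means of 247 CPM in sham and 273 CPM in CLP. Cd209b and Cd209d of the same list reached at most 0.92 CPM in any library. Of the 8 neutrophil markers 3 were tested and 2 were higher, of the 6 monocyte markers 5 were tested and 0 called, and no marker of these lists was at 0 in every library. The part of those cells in the level of Irak3 was not tested. Tmbim4, which shares exon sequence with Irak3 on the opposite strand, was called higher too (log2 fold change 0.62).

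Among the TRAF adaptors 4 of 6 were higher and 1 was lower, beside 19.8% and 23.5% of all genes tested. Traf6, the ubiquitin ligase that serves the IRAK kinases, was at 53.5, 51.1, 54.6 and 43.0 CPM in sham and at 111, 91.0, 109 and 114 CPM in CLP. The lowest CLP library stood well above the highest sham library. The rise was 1.07 on the log2 scale (SE 0.10, edgeR adjusted p = 1.26e-05), with means of 50.6 ± 5.2 and 106 ± 10 CPM, and was called under each scaling run and with each library left out.

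Traf1, which lacks the RING domain of the other TRAF proteins and is a known NF-kB target, had the highest log2 fold change of the 10 genes. It went from 7.35, 13.5, 14.6 and 7.94 CPM in sham to 33.8, 31.8, 45.1 and 50.0 CPM in CLP. Sham replicates 2 and 3 were higher than Sham replicates 1 and 4, but all CLP libraries were above the 4 of them. Traf1 rose by 1.90 on the log2 scale (SE 0.25, edgeR adjusted p = 0.000347), 1.57 with library totals and 1.78 to 2.09 with 1 library left out.

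Traf2 and Traf3 changed less, and their calls hung on the scaling. Traf2, which brings the cIAP ubiquitin ligases to TNF receptors, measured 32.4, 37.5, 42.2 and 33.8 CPM in the sham libraries and 44.9, 36.9, 62.7 and 53.3 CPM after CLP, so that the groups overlapped. Traf2 was called higher by 0.44 on the log2 scale (SE 0.15, edgeR adjusted p = 0.0384). That call was lost with library totals (0.12, edgeR adjusted p = 0.526). It was also lost on leaving out any one of CLP replicates 3 and 4 and Sham replicates 1, 2 and 4 (0.31 without CLP replicate 3; highest edgeR adjusted p 0.0961). Traf3, an adaptor of antiviral signalling that also restrains the kinase NIK, measured 47.1, 41.1, 51.5 and 37.9 CPM in the sham libraries and 62.7, 52.6, 75.1 and 74.8 CPM after CLP. Its groups did not overlap, with CLP replicate 2 just above the highest sham library. Traf3 rose by 0.58 on the log2 scale (SE 0.13, edgeR adjusted p = 0.00428), called with each library left out but not with library totals (0.26, adjusted p = 0.0929).

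Traf5, a close relative of Traf2 that is best known in lymphocytes, was the only TRAF gene called lower. Its levels were 10.1, 14.9, 12.4 and 14.3 CPM in sham and 9.03, 5.62, 8.44 and 11.5 CPM in CLP, with CLP replicate 4 inside the sham range. Traf5 fell by 0.58 on the log2 scale (SE 0.21, edgeR adjusted p = 0.0401), and its value was -0.91 with library totals (edgeR adjusted p = 0.00343). Leaving out any one of CLP replicates 1, 2 and 3 or Sham replicates 2, 3 and 4 ended the call (highest edgeR adjusted p 0.127). Summed B cell markers lay at 46.8 to 52.9 CPM in sham and 33.9 to 46.7 CPM in CLP. CLP replicate 4, the CLP library with the most Traf5, had the highest CLP sum. CLP replicate 2, with the least Traf5, was at 37.2 CPM, above CLP replicates 1 and 3. Sham replicate 2, the sham library with the most Traf5, had the lowest sham sum. Cd79b was the most abundant of the list, at a mean of 32.1 CPM in sham and 21.5 CPM in CLP. Of these 8 markers, all tested, 0 were higher and 1, Cd79b, was lower (log2 fold change -0.58), and none was at 0 in every library. T and NK cell markers summed to 19.5 to 37.9 CPM in sham and 21.6 to 56.7 CPM in CLP, with 1 of 8 lower. The part of lymphocyte RNA in the Traf5 values was not tested.

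Traf4, the TRAF protein least tied to immune receptors, was barely detected, with 33 to 86 reads per library. It stood at 1.30, 1.69, 1.92 and 2.84 CPM in sham and 2.37, 3.02, 4.71 and 2.45 CPM in CLP, and Sham replicate 4 lay inside the CLP range. A difference of 0.70 on the log2 scale (SE 0.31) did not pass in edgeR (adjusted p = 0.0892). Without Sham replicate 4 it did (0.97, adjusted p = 0.0261 in edgeR), as with 1 surrogate variable in the fit (0.82, adjusted p = 0.0434). Without CLP replicate 3, the library with the most Traf4, the difference was 0.44 (edgeR adjusted p = 0.261). With library totals it was 0.38 (edgeR adjusted p = 0.336).

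**Figure D2:**
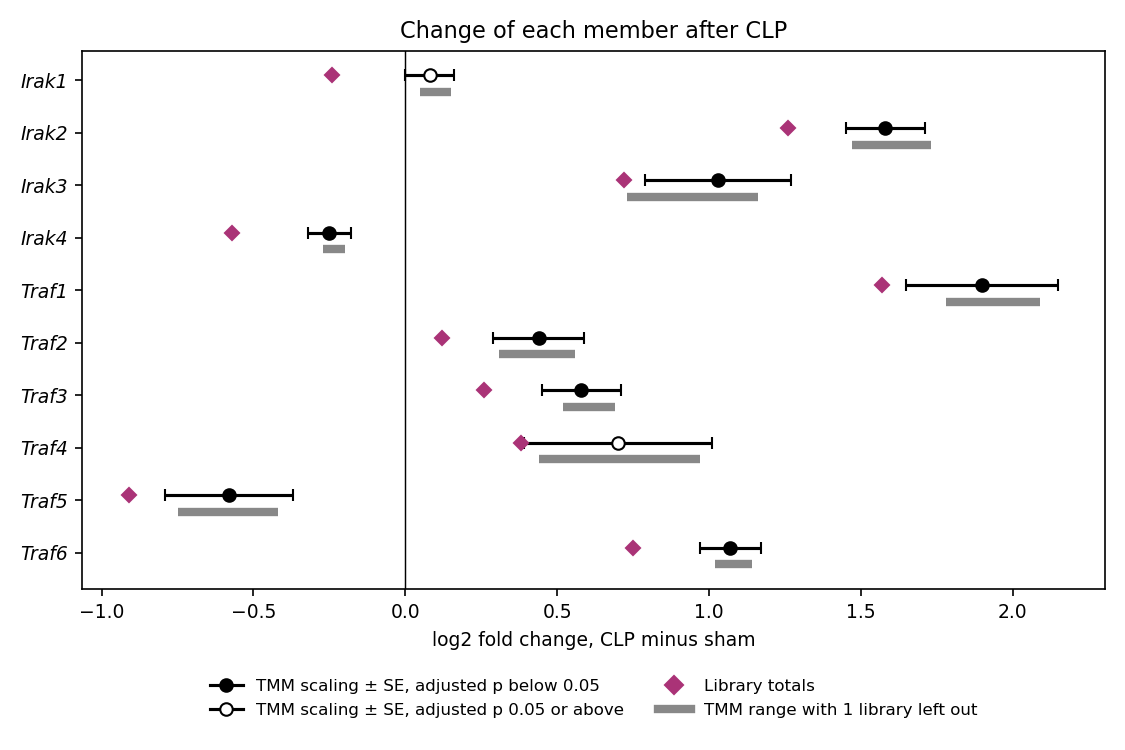
Log2 fold change (CLP minus sham) of each gene with TMM scaling (circles, whiskers are SE, filled where the adjusted p is below 0.05), with library totals (diamonds) and the range with 1 library left out (grey bars). Library totals move every gene to the left, past 0 for Irak1, while Irak2, Irak3, Traf1 and Traf6 are at 0.72 or above.

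Levels of different genes were compared as CPM per kilobase of exon sequence. The length was that of all annotated exons of a gene, and which isoforms the cells used was not determined. The order and the shares below depend on these lengths. Before division by length, Irak3 and Traf6 averaged 51.3 and 50.6 CPM in sham, and Irak4 and Traf6 71.8 and 106 CPM in CLP. In sham libraries all 4 IRAK genes stood above all 6 TRAF genes, in the order Irak2 (24.3 ± 5.2 CPM per kb), Irak1 (21.0 ± 0.9), Irak4 (17 ± 0.8) and Irak3 (13.9 ± 1.2). The ranges of Irak2 and Irak1 overlapped, and those of the other neighbours in this order did not. Traf2 (7.15 ± 0.86 CPM per kb), Traf6 (6.41 ± 0.66) and Traf3 (6.04 ± 0.82) followed with overlapping ranges, then Traf5 (2.83 ± 0.48), Traf1 (1.23 ± 0.42) and Traf4 (0.589 ± 0.198), the ranges of the last pair overlapping.

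After CLP the order differed. Irak2 stood apart at 72.3 ± 2.5 CPM per kb, and Irak3 (28.5 ± 11.3) came before Irak1 (22.2 ± 2.2), with overlapping ranges, while Irak4 was lowest of the kinases at 14.3 ± 0.4. Traf6 headed the adaptors at 13.5 ± 1.3 CPM per kb, overlapping both Irak4 above it and Traf2 below it (9.69 ± 2.18). Traf3 was at 9.02 ± 1.47, and Traf1 (4.55 ± 1.00) had passed Traf5 (1.90 ± 0.53), without overlap between this pair.

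As a share of the summed IRAK level per kb, Irak2 made up 26.7% to 35.6% in sham libraries and 48.6% to 55.9% in CLP libraries. Irak4 made up 20.7% to 23.9% in sham and 9.16% to 11.2% in CLP, and Irak1 went from 25.7% to 30.8% down to 12.5% to 18.6%. The share of Irak3 was 18.0% to 18.6% in sham and 16.1% to 29.7% in CLP, so its groups overlapped. Within the TRAF genes Traf6 made up 24.7% to 29.5% in sham and 30.9% to 37.1% in CLP, Traf1 3.63% to 6.19% and 10.1% to 12.9%, and Traf5 9.59% to 14.1% and 3.89% to 5.73%. These shares do not depend on the scaling between libraries. They are parts of a whole, so that a larger share of one gene lowers the others.

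**Figure D3:**
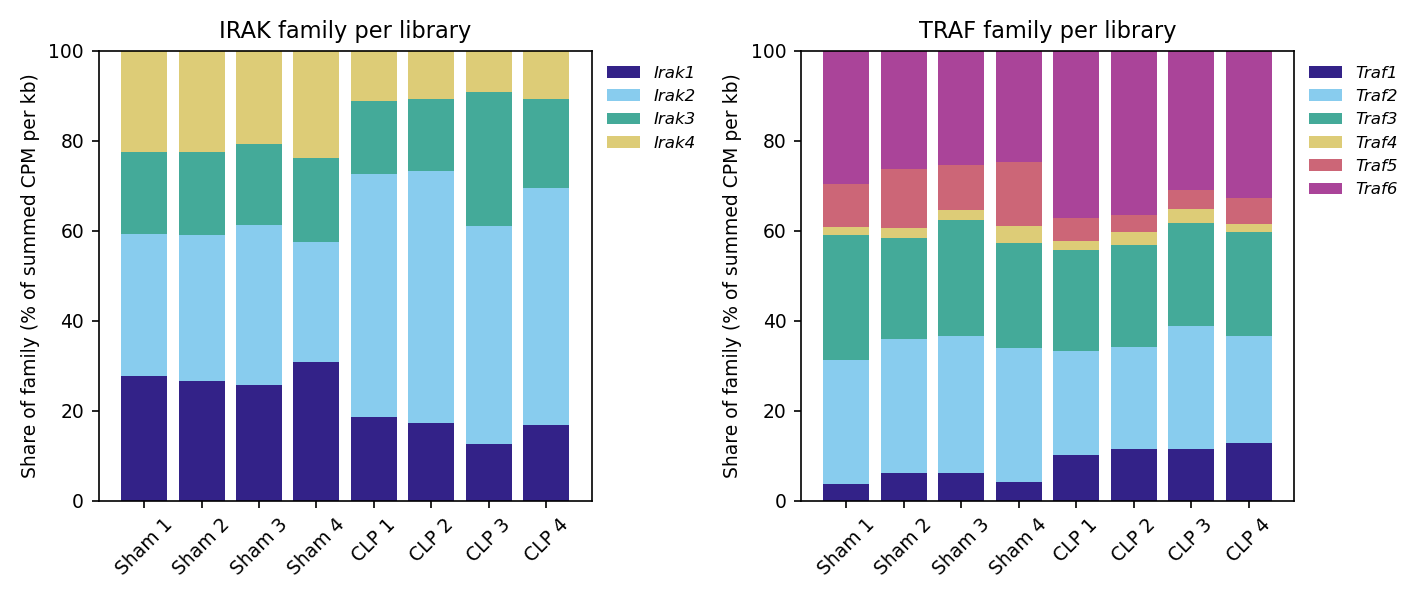
Share of each gene in the summed level per kilobase of its family, in percent, for each of the 8 libraries, with the IRAK family on the left and TRAF on the right. Irak2 takes 48.6% to 55.9% of the IRAK level in the 4 CLP libraries and at most 35.6% in sham.

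Ratios of counts within a library were compared next, since they too are free of scaling. Irak4 served as the reference for the kinases and Traf6 for the adaptors, which gave 8 ratios. The log2 ratio of Irak2 to Irak4 was -0.03 to 0.59 in sham and 2.08 to 2.22 in CLP, a difference of 1.85. For Irak3 to Irak4 the ratio turned from below 0 in all sham libraries (-0.82 to -0.66) to above 0 in all CLP libraries (0.08 to 1.25). Irak1 to Irak4 differed by 0.32, from 0.15 to 0.27 in sham to 0.36 to 0.64 in CLP. Relative to Traf6, Traf1 was higher by 0.86 in CLP, while Traf2, Traf3 and Traf5 were lower (differences of -0.65, -0.50 and -1.68). The groups did not overlap for these 7 ratios, each with p = 0.0286 in a two-sided exact permutation test over 70 assignments, the smallest that test can give, and 0.0327 adjusted over the 8 ratios. Traf4 to Traf6 did not pass (difference -0.38, exact p = 0.429). The references changed too, Traf6 by 1.07 and Irak4 by -0.25 on the log2 scale with TMM scaling. Each ratio holds the change of its reference. Traf2 and Traf3, lower relative to Traf6, were themselves higher by 0.44 and 0.58.

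**Figure D4:**
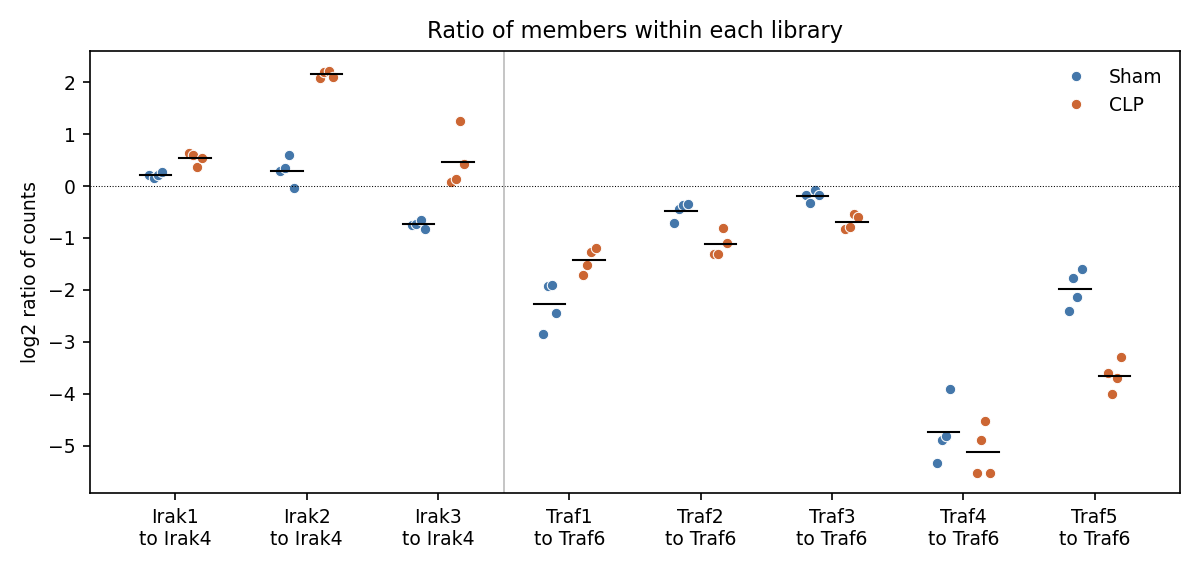
Log2 ratio of the counts of each gene to Irak4 (left) or Traf6 (right) in each library; points are libraries and bars the means of 4. CLP and sham libraries separate for every ratio but Traf4 to Traf6, with Irak2 to Irak4 at 2.08 or above in CLP.

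The partners of these proteins were taken from lists by role, 81 genes of which 80 were tested. Of these partners 35 were higher and 12 lower, with a median log2 fold change of 0.26, beside 19.8% and 23.5% of all genes. With library totals 24 were higher and 25 lower, beside 9.18% and 46% of all genes. Among 12 receptor adaptors 5 were higher and 3 lower (5 and 4 with library totals). Tifa, which binds Traf6 and relays the sensing of a bacterial sugar, rose by 1.71 on the log2 scale to 359 ± 69 CPM, from 110 ± 18 CPM (edgeR adjusted p = 2.39e-05). Its relative Tifab, described as an inhibitor of Traf6 signalling, fell from 50.4 to 73.8 CPM in sham libraries to 10.8 to 16.2 CPM in CLP libraries with edgeR giving -2.27 on the log2 scale and an adjusted p of 2.4e-06. Pik3ap1, which links Toll-like receptors to PI3 kinase and was the most abundant adaptor by CPM, rose 1.61-fold. Myd88, which binds Irak4, rose 1.91-fold (adjusted p = 0.000837), and is named here outside the rule for named genes.

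Of 13 ubiquitin enzymes 5 were higher and 1 lower, but 2 were higher and 4 lower with library totals. The share of all genes called was 43.3% (19.8% higher), and 55.1% with library totals (9.18% higher). The ligases cIAP1 and cIAP2, which bind Traf2, are encoded by Birc2 and Birc3. Birc2 rose from 79.9 ± 16.0 to 260 ± 39 CPM and Birc3 from 291 ± 76 to 936 ± 87 CPM, log2 fold changes of 1.71 and 1.69 (adjusted p = 2.36e-05 and 9.34e-05 in edgeR). The ligase Trim8 fell 1.51-fold (adjusted p = 5.1e-05). Peli1, a ubiquitin ligase that acts on IRAK proteins, did not pass (-0.14, edgeR adjusted p = 0.523), and is named outside the rule. With library totals it was called lower (-0.46, edgeR adjusted p = 0.0436).

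Among 15 downstream kinases 8 were higher and 3 lower, against 4 higher and 5 lower with library totals. All genes gave 19.8% higher and 23.5% lower, and 9.18% and 46% with library totals. Ikbke, a kinase of the antiviral branch served by Traf3, rose 4.77-fold (2.25 on the log2 scale, adjusted p = 0.014 in edgeR). Its spread was wide, with means of 20.9 ± 10.0 CPM in sham and 98.8 ± 68.3 CPM in CLP. Without CLP replicate 3 the rise was 1.68 on the log2 scale (edgeR adjusted p = 0.0216). Map3k8, the kinase TPL2 and the most abundant of the list by CPM, rose 2.02-fold. Tab1, a partner of the kinase TAK1 that Traf6 engages, fell by 1.52 on the log2 scale, with means of 13.3 ± 1.5 CPM in sham and 4.64 ± 0.77 CPM in CLP (edgeR adjusted p = 2.64e-05). Map3k7, which encodes TAK1, is named outside the rule. Its call (0.21 on the log2 scale, edgeR adjusted p = 0.047) was lost with library totals (-0.11), with no filter on low counts, with 1 surrogate variable, and on leaving out any one of CLP replicates 1, 3 and 4 and Sham replicates 1 and 2 (edgeR adjusted p up to 0.171 over the settings with TMM scaling).

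Regulators and brakes held 10 higher and 5 lower genes of 22, and 9 of each with library totals. For these and the receptors below, all genes gave 19.8% higher and 23.5% lower, and 9.18% and 46% with library totals. Tnip3 and Tnfaip3, which encode a partner of A20 and A20 itself, had the highest log2 fold changes of this list, 5.90 and 2.58 (edgeR adjusted p = 0.000182 and 1.46e-06). Traf3ip3, a binding partner of Traf3, fell 2.05-fold (adjusted p = 0.00012 in edgeR). Tank, which binds several TRAF proteins and restrains Traf6, rose by 1.45 on the log2 scale, with means of 107 ± 13 CPM in sham and 292 ± 21 CPM in CLP (edgeR adjusted p = 1.96e-06), and is named outside the rule. Of 18 tested receptors that use TRAF proteins, 7 were higher and 0 lower in edgeR, while library totals gave 4 higher and 3 lower. Il17ra, which reaches Traf6 through the adaptor Act1, rose by 2.58 on the log2 scale to 387 ± 74 CPM, from 64.6 ± 4.3 CPM (edgeR adjusted p = 6.76e-07). Tnfrsf1a, TNF receptor 1 and the most abundant of them by CPM, averaged 292 ± 53 CPM in sham libraries and 397 ± 61 CPM after CLP, with overlapping groups. Its call (0.44 on the log2 scale, edgeR adjusted p = 0.0301) was lost with library totals (0.13), with no filter on low counts (edgeR adjusted p = 0.0855), with the replicate block (0.059) and without CLP replicate 3 or 4 or Sham replicate 2 (up to 0.0828).

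**Figure D5:**
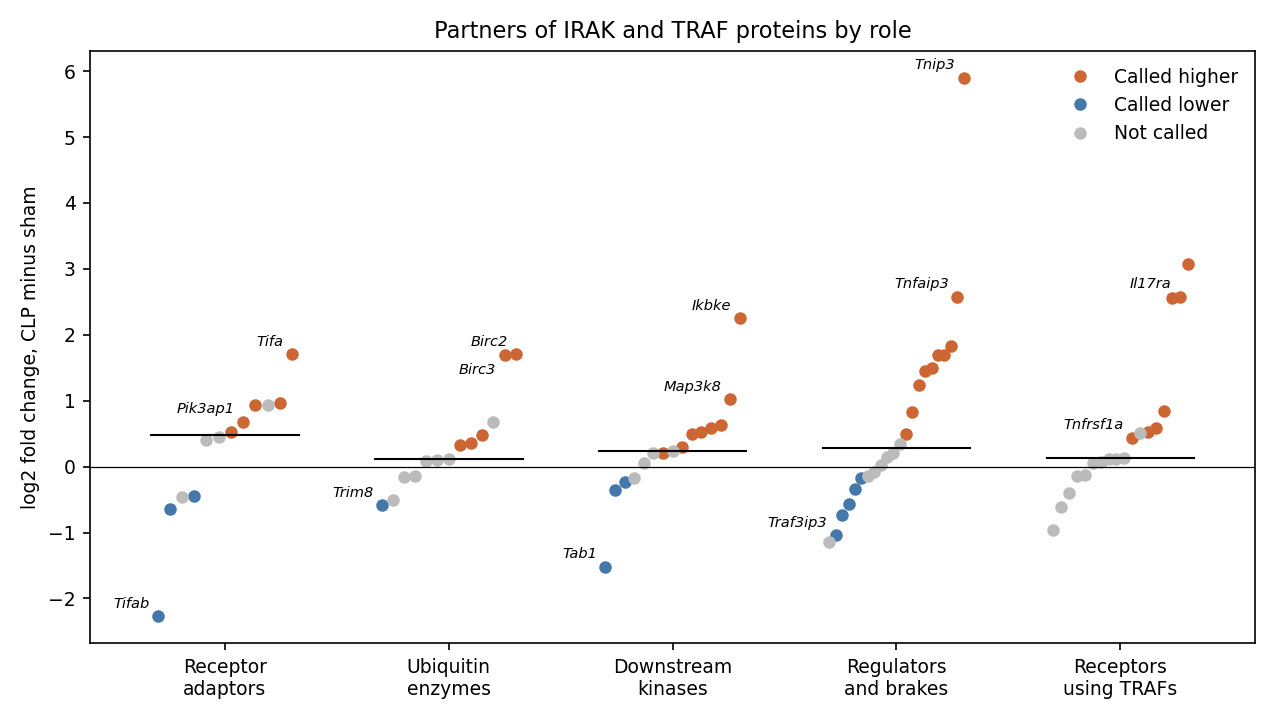
Log2 fold change (CLP minus sham, TMM scaling) of 80 tested partner genes in 5 role lists; points are genes, coloured by call at an adjusted p below 0.05, and bars are list medians. The genes named by the rule are labelled, from Tifab at -2.27 to Tnip3 at 5.90.

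The genes whose levels followed Traf1 most closely over the 8 libraries were Eid3 (Pearson r = 0.993), Col11a2 (0.993) and Lilr4b (0.991). Those that followed Traf5 most closely were Zfp40 (0.942), Cfap20 (0.939) and Slx4ip (0.920). These r values describe log2 levels over 8 libraries that share the same split into CLP and sham, and carry no test.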

How the data were processed

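The values used were raw read counts per Ensembl gene, which the authors deposited as 1 table with a column for each of 8 libraries. The submitters' processing notes list the mouse build mm39 and the tools STAR 2.7.10b, DESeq2, FastQC and featureCounts. Libraries were stranded, per the labels' protocols. Annotation release and strand setting: not given in the sources used here. Symbols and exon lengths came from GENCODE release M21 (GRCm38, not the build of the counts, and used for names and lengths only); promoter windows came from RefSeq on GRCm38.p6; 52081 IDs had a symbol.

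Genes were kept with filterByExpr (14004), scaled with TMM and tested with edgeR 4.0.16 (R 4.3.3) in a robust quasi-likelihood fit on 2 groups. Each SE was derived from the fold change and its F statistic. No 2 libraries of a group agreed within counting noise (chi-square per degree of freedom 8.99 or more). The edgeR step was tested on simulated data. Ratios used raw counts plus 0.5 and scipy 1.17.1. Alternatives were DESeq2 1.42.0, limma-voom 3.58.1, other scalings and filters, sva 3.50.0, a replicate block and each library left out.

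The members and lists were chosen with earlier results of these data known. Named partners were, per role, the called genes with the highest and lowest log2 fold change at a mean of 5 CPM or more. The most abundant of each role was named too. Marker lists were given mostly as sums and counts. Of the most abundant and most changed genes of these lists, only Cd79b, Marco, Siglec1 and Pecam1 are named. Myd88, Peli1, Map3k7, Tank, the genes overlapping Irak3 and Irak4 and the markers Stab2, Cdh5, Cd209b and Cd209d were added after values were seen. Likeness used log2(CPM + 1) of named genes at 5 CPM or more, for the member with the highest and the lowest log2 fold change.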

Additional observations from a re-analysis of the deposited data

Results flagged for a closer look

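Of 80 groups of 4 libraries examined for a library far from the others (by Dixon's criterion at the 95% level, which flags about 1 group in 20 by chance), 4 held one. CLP replicate 3 was far below the other CLP libraries for Irak1, at 89.1 CPM. Sham replicate 4 was far below the other sham libraries for Tnfaip3, at 556 CPM. Tmbim4, which overlaps Irak3, was at 53.1 CPM in Sham replicate 1, far above the other sham libraries. Cd79b, a B cell marker, was at 15.9 CPM in CLP replicate 3, far below the other CLP libraries.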

How the results depend on the processing

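The rises of Irak2, Irak3, Traf1 and Traf6 were called under every alternative run. With library totals Irak1 turned to -0.24, Map3k7 to -0.11 and Twf1 to -0.09, 1286 of all genes were higher and 6435 lower, and 25 partners were lower. With DESeq2 size factors in edgeR 1 member was lower, since Traf5 lost its call (adjusted p = 0.0523 in edgeR). Leaving out 1 library gave 5 to 7 called members, of which 5 to 6 were higher and 0 to 2 lower. Over the same 8 settings 37 to 48 partners were called (29 to 37 higher, 8 to 12 lower), and of all genes 5077 to 6250 (2310 to 2847 higher, 2639 to 3458 lower). With 1 library left out the exact test on ratios cannot go below p = 0.0571, so it was not used there. The libraries of both groups share replicate numbers, but nothing in the labels pairs them: same-numbered libraries had correlations of 0.0743, -0.0377, 0.261 and -0.192, and of the CLP libraries only replicate 3 correlated best with its own number. With the replicate block 6089 genes were called, and 7 members, 6 higher and 1 lower, Traf5 having an adjusted p of 0.0503. Depth limits Traf4 most, with 33 to 86 reads per library. With a filter at a mean of 5 CPM Traf4 gave no value.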
